A study of Mus musculus with 6 samples.

Results

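The genes described here are 10 published hepatic targets of the microRNA miR-122, chosen by symbol: Aldoa, Gys1, P4ha1, Slc7a1, Cd320, Tmed3, Ccng1, Ndrg3, Snrk and Iqgap1. All 10 were listed in all 6 libraries and all 10 passed the filter on low counts, among 16426 genes listed in at least 1 library and 12230 genes tested. In 3 of the libraries the liver had received an AAV8-borne shRNA to S1pr2, a receptor for sphingosine-1-phosphate, and in 3 a scrambled one. The mice were 7 to 12 weeks old, wild type, on a mixed B6:sv129 background, and received the vector through the tail vein. The series text adds that males drank dexamethasone, a synthetic glucocorticoid, at about 0.84 mg/kg for 7 days. Both groups therefore carried a hairpin, an AAV8 vector and, by that text, the glucocorticoid, and no group without a hairpin was analysed here. The promoter of the hairpin is not given in the sources used here. Nothing in the labels says that replicates were separate animals, so each numbered liver below is a library. The tests describe the spread among these libraries, which may be technical.

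miR-122 is the most abundant microRNA of hepatocytes. A mature microRNA sits in an Argonaute protein and pairs through its seed with sites mostly in the 3' UTR of messenger RNAs, which are then repressed or degraded faster. Most of the targets listed above are known to rise in mouse liver when miR-122 is deleted or blocked, and vector-made hairpins are known to use the same exporter and Argonaute proteins as natural microRNAs. The gene tables hold messenger RNA levels only, so the level of mature miR-122 was not measured, and its sequence and its sites are not shown here.

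The livers held 16558775 to 17145580 expected counts with the S1pr2 hairpin and 16870737 to 17410160 with the scrambled hairpin, and the counts of all 15 pairs of libraries differed beyond sampling noise (chi-square per degree of freedom 20.1 to 193). S1pr2 itself fell in the S1pr2 shRNA livers. Its level was 3.04, 2.20 and 2.22 CPM (counts scaled to a common library size, with factors from the trimmed mean of M-values, TMM) in S1pr2 shRNA livers 1 to 3, against 4.41, 5.23 and 6.66 CPM in scramble livers 1 to 3 (log2 fold change -1.12, SE 0.24, edgeR quasi-likelihood test, adjusted p = 0.0301). That call was lost when scramble liver 2 or 3 or S1pr2 shRNA liver 2 or 3 was left out, with edgeR adjusted p between 0.0785 and 0.117.

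None of the 10 miR-122 targets passed the test in either direction. In the edgeR fit over all 12230 genes, 7.66% were called at an adjusted p under 0.05, with 369 genes (3.02%) higher and 568 (4.64%) lower in S1pr2 shRNA livers. The split depended on the scaling, with 506 higher and 476 lower under upper-quartile factors and 608 higher and 265 lower on log2(FPKM + 0.1). Of the 10 targets 0 were called by edgeR, and 10 genes are too few to tell this from the 7.66% of all genes. DESeq2 and limma-voom also called 0. At an unadjusted p under 0.05 there were 2 of 10, Ccng1 and Ndrg3, both with lower means in S1pr2 shRNA livers, against 24.5% of all tested genes. The 5 positive and 5 negative log2 fold changes of the targets had a median of -0.02, beside 0.01 for all tested genes, and ran from -0.49 to 0.67. The 2 groups did not overlap in 3 of the 10 targets, against 31.9% of all tested genes.

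**Figure D1:**
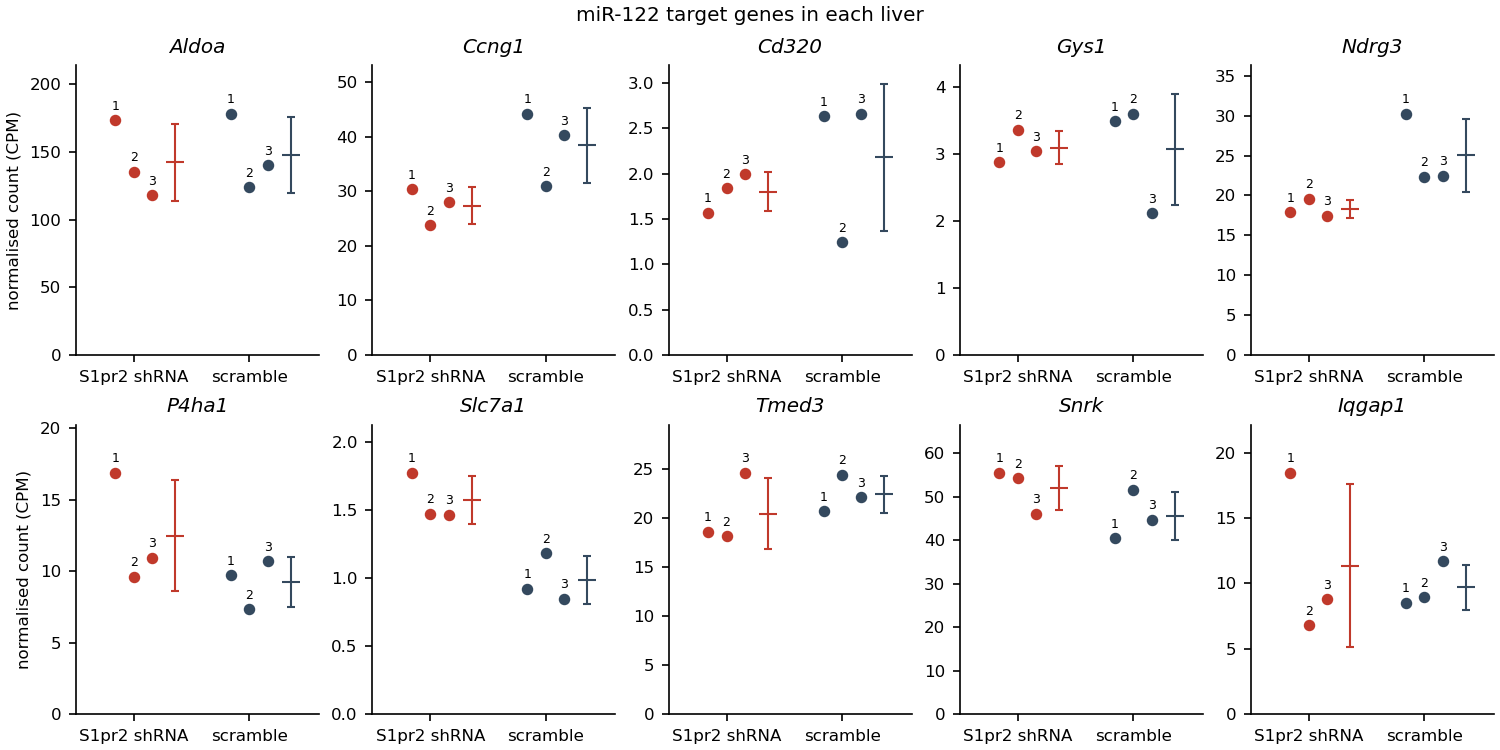
Normalised counts (CPM, y axes starting at 0, a separate scale per gene) of the 10 miR-122 targets in each liver. Red points are S1pr2 shRNA livers and dark points scramble livers, numbered by replicate, and the bars beside them give the mean ± SD (n = 3 each). The groups do not overlap in Slc7a1, Ccng1 and Ndrg3, and S1pr2 shRNA liver 1 stands above all other livers in P4ha1 and Iqgap1.

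On the per-length scale (FPKM, deposited by the authors) the targets covered a wide range of levels. In scramble livers Aldoa averaged 92.6 ± 19.5 FPKM, Tmed3 16.2 ± 0.962 and Ccng1 10.3 ± 2.08 (SD, n = 3 each). Ndrg3 at 8.92 ± 1.78 and Snrk at 8.81 ± 0.856 FPKM came next and did not differ from each other or from Ccng1 beyond their spread. Below them stood P4ha1 at 2.15 ± 0.444, Iqgap1 at 1.23 ± 0.225, Cd320 at 0.94 ± 0.364 and Gys1 at 0.783 ± 0.211 FPKM, the last 3 of which overlapped. Slc7a1 was lowest, at 0.13 ± 0.017 FPKM. The levels in S1pr2 shRNA livers ran likewise from 99.7 ± 27.8 FPKM for Aldoa to 0.233 ± 0.040 FPKM for Slc7a1. The longest 3' UTR among transcripts matched to the tables was 185 bases in Aldoa and 5030 bases in Slc7a1 (GENCODE M21). The median over the 10 targets was 1792.5 bases, beside 1063.5 bases over 12100 matched tested genes.

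Aldoa encodes the aldolase isoenzyme typical of muscle, which splits fructose-1,6-bisphosphate in glycolysis. Its level was 173, 135 and 118 CPM in S1pr2 shRNA livers 1 to 3, against 178, 124 and 140 CPM in scramble livers 1 to 3. The groups overlapped throughout, with liver 1 highest in both. The fold change was 0.964 with a 95% interval of 0.714 to 1.30 (edgeR adjusted p = 0.90). Its log2 fold change was -0.05 with TMM factors and turned positive with upper-quartile factors (0.01), on FPKM (0.09) and without scramble liver 1 (0.11) or S1pr2 shRNA liver 3 (0.06), always without passing.

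Exons of Aldoa overlap those of Fam57b on the other strand by up to 25 bases in GENCODE M21. Aldoc, the aldolase of brain, was at 11.1 ± 3.09 CPM in S1pr2 shRNA livers and 7.98 ± 3.10 CPM in scramble livers (n = 3 each) and was not called (edgeR adjusted p = 0.430).

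Gys1, the glycogen synthase typical of muscle, was at 2.88, 3.37 and 3.04 CPM in S1pr2 shRNA livers, against 3.49, 3.61 and 2.12 CPM in scramble livers. Scramble liver 3 held the lowest value and scramble liver 2 the highest, so the S1pr2 shRNA livers lay inside the range of the scramble livers. The fold change was 1.01, with a 95% interval of 0.667 to 1.52 (edgeR adjusted p = 0.985), and its sign turned without scramble liver 3 or S1pr2 shRNA liver 2. These values rested on 52 to 57 counts per S1pr2 shRNA library and 35 to 58 per scramble library. Exons of Gys1 overlap those of Ruvbl2 on the other strand by up to 290 bases in GENCODE M21, and the strand handling is not given in the sources used here, so reads of the pair cannot be told apart there. Gys2, the glycogen synthase of liver, fell to 179 ± 19.7 CPM in S1pr2 shRNA livers, against 294 ± 0.889 CPM in scramble livers (n = 3 each; a change of -0.72 log2 units, SE 0.13, edgeR adjusted p = 0.0178). The Gys2 call was lost without scramble liver 2 (edgeR adjusted p = 0.0539), scramble liver 3 (0.0572) or S1pr2 shRNA liver 2 (0.0844). Gys1 was 1.28, 1.37 and 1.09% of the summed FPKM of the pair in S1pr2 shRNA livers, against 0.855, 0.882 and 0.514% in scramble livers, with no overlap.

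**Figure D2:**
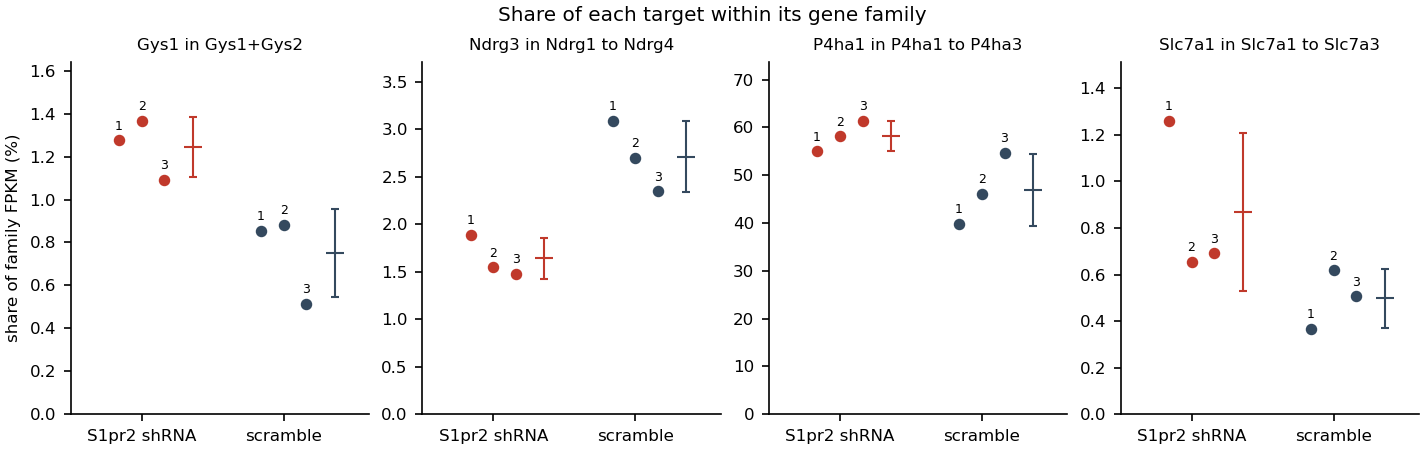
Share of a target in the summed FPKM of its gene family (%, y axes starting at 0), for Gys1, Ndrg3, P4ha1 and Slc7a1, in S1pr2 shRNA livers (red, left) and scramble livers (dark, right), with the mean ± SD beside the points (n = 3 each). Gys1 averaged 1.24 ± 0.14% in S1pr2 shRNA livers and 0.75 ± 0.205% in scramble livers, and the panels show the 4 of 6 families in which the groups did not overlap.

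Shares of this kind do not depend on the scaling of the libraries. They were computed for 6 families after the data were seen. In 4 of the 6 (Gys1, P4ha1 and Slc7a1 higher, Ndrg3 lower) the groups did not overlap. This gave an exact two-sided permutation p = 0.1, the smallest that 3 against 3 allow, and 0.15 after Benjamini-Hochberg adjustment over the 6. In CPM, a different measure, the groups did not overlap in 31.9% of all tested genes. The nearest livers differed little in P4ha1 (55.0 against 54.7%) and Slc7a1 (0.656 against 0.618%). The Slc7a1 shares also rested on low FPKM, with means of 0.233 in S1pr2 shRNA livers and 0.13 in scramble livers. The shares of Ccng1 (exact permutation p = 0.5) and Iqgap1 (exact permutation p = 0.2) overlapped.

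P4ha1 encodes a catalytic subunit of prolyl 4-hydroxylase, which modifies collagen and is known to be induced by hypoxia-inducible factor 1 (HIF-1). It stood at 16.9, 9.61 and 10.9 CPM in S1pr2 shRNA livers, against 9.74, 7.34 and 10.7 CPM in scramble livers. S1pr2 shRNA liver 1 was the highest of all 6, and the other 5 livers overlapped. Its fold change was 1.35 with a 95% interval of 0.919 to 1.98 (edgeR adjusted p = 0.317), and the log2 fold change was 0.43 with all livers, 0.15 without S1pr2 shRNA liver 1 and 0.28 without scramble liver 2. P4ha2, the paralog, was at 4.94 ± 2.08 CPM in S1pr2 shRNA livers and 5.95 ± 1.96 CPM in scramble livers (n = 3 each) and was not called. P4ha1 made up 55.0, 58.2 and 61.3% of the family in S1pr2 shRNA livers, against 39.9, 46.1 and 54.7% in scramble livers.

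The RefSeq window around the start of P4ha1 (GRCm38.p6, plus strand, 250 bases before to 50 after the start) is printed because the gene is a known HIF-1 target. The capitals mark its one match to ACGTG, a form of the core of the HIF-1 element, searched on both strands. The match reads on the opposite strand and begins at base 235 of the window. The other form of the core, GCGTG, was not searched and stands unmarked in the window. ACGTG also lies within the E-box CACGTG, and 19.6% of all 32851 windows hold it, as do 4 of the 16 windows of the 10 targets, in Aldoa, P4ha1 and Tmed3. The Aldoa windows that hold it overlap and share the same site, which is thus counted more than once.
P4ha1, chr10:59323046-59323345: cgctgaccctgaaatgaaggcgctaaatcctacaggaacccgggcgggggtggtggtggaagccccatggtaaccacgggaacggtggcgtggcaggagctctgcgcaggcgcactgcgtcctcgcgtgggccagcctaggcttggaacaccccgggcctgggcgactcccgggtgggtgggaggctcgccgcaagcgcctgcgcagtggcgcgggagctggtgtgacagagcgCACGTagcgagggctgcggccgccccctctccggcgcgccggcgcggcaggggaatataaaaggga

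Other HIF-1 targets moved both ways. Of 17 tested, 1 rose and 1 fell (11.8%, beside 7.66% of all genes), with a median log2 fold change of -0.20. Egln3, an oxygen-sensing prolyl hydroxylase, rose to 24.3 ± 2.43 CPM in S1pr2 shRNA livers, against 15.3 ± 1.02 CPM in scramble livers (n = 3 each; a change of 0.66 log2 units, SE 0.11, edgeR adjusted p = 0.0157). The glycolytic enzyme Gapdh fell to 2237 ± 158 CPM in S1pr2 shRNA livers, against 4024 ± 890.5 CPM in scramble livers (edgeR adjusted p = 0.0450), a call lost whichever single liver was left out, with upper-quartile factors, without robust dispersions and on FPKM. Egln3 lost its call without scramble liver 3 (edgeR adjusted p = 0.0580) or S1pr2 shRNA liver 2 (0.0687). Pgk1, Kdm3a and the rest did not pass, at -0.56 for Pgk1 and 0.36 for Kdm3a. Without scramble liver 1 the median of the list was -0.04.

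The transport and secretory genes among the targets are Slc7a1, Cd320 and Tmed3. Slc7a1 encodes the cationic amino acid transporter CAT-1, whose messenger is a textbook example of relief from miR-122. It had the largest log2 fold change of the 10, at 1.77, 1.47 and 1.46 CPM in S1pr2 shRNA livers, against 0.919, 1.18 and 0.847 CPM in scramble livers. Every S1pr2 shRNA liver lay above every scramble liver, as in 15.1% of all tested genes. The fold change was 1.59 with a 95% interval of 0.987 to 2.58, and the gene was not called (log2 fold change 0.67, SE 0.30, edgeR adjusted p = 0.216). It rested on 34.8, 24.5 and 24.6 expected counts in S1pr2 shRNA livers and 14.9, 19.0 and 14.4 in scramble livers. The counts were fractional in all 6 libraries, which RSEM gives where reads could belong to more than one gene, so its values are uncertain. Over all alternatives its log2 fold change stayed between 0.13 and 0.81, with adjusted p from 0.177 to 0.384.

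Slc7a2, the cationic amino acid transporter typical of liver, was at 211 ± 54.8 CPM in S1pr2 shRNA livers and 221 ± 37.6 CPM in scramble livers (n = 3 each, edgeR adjusted p = 0.894, fractional counts in 6 libraries). Slc7a1 made up 1.26, 0.656 and 0.692% of the family FPKM in S1pr2 shRNA livers, against 0.368, 0.618 and 0.506% in scramble livers.

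Cd320 encodes the receptor that takes up transcobalamin-bound vitamin B12. Its level was 1.57, 1.84 and 1.99 CPM in S1pr2 shRNA livers, against 2.63, 1.24 and 2.66 CPM in scramble livers, on 20 to 44 counts per library. The S1pr2 shRNA livers lay between scramble liver 2 and the other two. The estimated fold change was 0.824, with a 95% interval of 0.477 to 1.42 (edgeR adjusted p = 0.680).

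Tmed3 belongs to the p24 family of cargo receptors between the endoplasmic reticulum and the Golgi. It was at 18.6, 18.2 and 24.6 CPM in S1pr2 shRNA livers, against 20.7, 24.5 and 22.2 CPM in scramble livers. S1pr2 shRNA livers held both the lowest and the highest value. Its fold change was 0.913 with a 95% interval of 0.727 to 1.15 (edgeR adjusted p = 0.631), and the log2 fold change of -0.13 became 0.01 on FPKM. Its paralog Tmed4 fell to 27.2 ± 1.08 CPM in S1pr2 shRNA livers, against 55.9 ± 3.27 CPM in scramble livers (n = 3 each; a change of -1.04 log2 units, SE 0.09, edgeR adjusted p = 0.00315). Tmed2 (0.08), Tmed9 (0.32) and Tmed10 (-0.11) were not called.

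Ccng1, Ndrg3, Snrk and Iqgap1 take part in growth control, signalling and the cytoskeleton. Ccng1 encodes cyclin G1, a transcriptional target of p53 as well as of miR-122. It was at 30.4, 23.8 and 28.0 CPM in S1pr2 shRNA livers, against 44.2, 30.9 and 40.2 CPM in scramble livers. All S1pr2 shRNA livers lay below all scramble livers, as in 16.8% of all tested genes, by a narrow margin between S1pr2 shRNA liver 1 and scramble liver 2. The fold change was 0.712 with a 95% interval of 0.555 to 0.913 before adjustment (log2 fold change -0.49, SE 0.16, edgeR adjusted p = 0.1).

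The RefSeq window of Ccng1 (GRCm38.p6, minus strand) is printed because the gene is a known p53 target, and the capitals mark its one match to the p53 half-site, searched on both strands without mismatches. The match begins at base 66 of the window. The search was for half-sites, so the capitals mark a half-site and not a whole p53 element. Of all 32851 windows 8.36% hold such a half-site, as do 3 of the 16 windows of the targets, in Ccng1, Cd320 and Gys1.
Ccng1, chr11:40755237-40755536: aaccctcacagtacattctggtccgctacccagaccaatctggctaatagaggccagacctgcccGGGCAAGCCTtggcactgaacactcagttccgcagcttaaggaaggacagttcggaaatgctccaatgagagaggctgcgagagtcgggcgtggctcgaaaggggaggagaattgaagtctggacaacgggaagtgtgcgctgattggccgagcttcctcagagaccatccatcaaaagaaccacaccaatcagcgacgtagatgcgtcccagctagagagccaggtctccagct

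Among 14 tested genes known as p53 targets, 1 rose and 0 fell (7.14%, beside 7.66% of all genes), with a median log2 fold change of 0.12. The riser was Plk2, a polo-like kinase, at 15.5, 15.1 and 11.2 CPM in S1pr2 shRNA livers, against 4.11, 6.16 and 7.20 CPM in scramble livers (log2 fold change 1.26, SE 0.22, edgeR adjusted p = 0.0181). The Plk2 call was lost without scramble liver 2 (edgeR adjusted p = 0.0611) or S1pr2 shRNA liver 2 (0.0779), and without S1pr2 shRNA liver 1 the median of the list was -0.13. Gdf15 (1.77, edgeR adjusted p = 0.178), Ei24 (-0.79), Aen (0.31), Mdm2 (0.19) and Cdkn1a (-0.49) did not pass. Ccng2, the paralog of cyclin G1, was at 7.79 ± 0.715 CPM in S1pr2 shRNA livers and 11.7 ± 3.17 CPM in scramble livers (n = 3 each; log2 fold change -0.59, edgeR adjusted p = 0.131). The call of Ccng2 appeared without scramble liver 2 (edgeR adjusted p = 0.0356).

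Ndrg3 is a member of the N-myc downstream-regulated gene family. Its level was 17.9, 19.6 and 17.4 CPM in S1pr2 shRNA livers, against 30.3, 22.3 and 22.5 CPM in scramble livers. The groups did not overlap, with scramble liver 1 well above the rest. The fold change was 0.731, with a 95% interval of 0.584 to 0.916 before adjustment (log2 fold change -0.45, SE 0.14, edgeR adjusted p = 0.0945). Without scramble liver 1 the log2 fold change was -0.29.

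Ndrg1, the stress- and hypoxia-inducible paralog, rose to 18.9 ± 1.87 CPM in S1pr2 shRNA livers, against 9.63 ± 1.2 CPM in scramble livers (n = 3 each; a change of 0.97 log2 units, SE 0.13, edgeR adjusted p = 0.00772). Ndrg2, the abundant paralog of liver, was at 885 ± 133 CPM in S1pr2 shRNA livers and 718 ± 64.0 CPM in scramble livers (n = 3 each, edgeR adjusted p = 0.319). Ndrg3 made up 1.89, 1.55 and 1.48% of the family FPKM in S1pr2 shRNA livers, against 3.09, 2.70 and 2.35% in scramble livers, with no overlap.

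**Figure D3:**
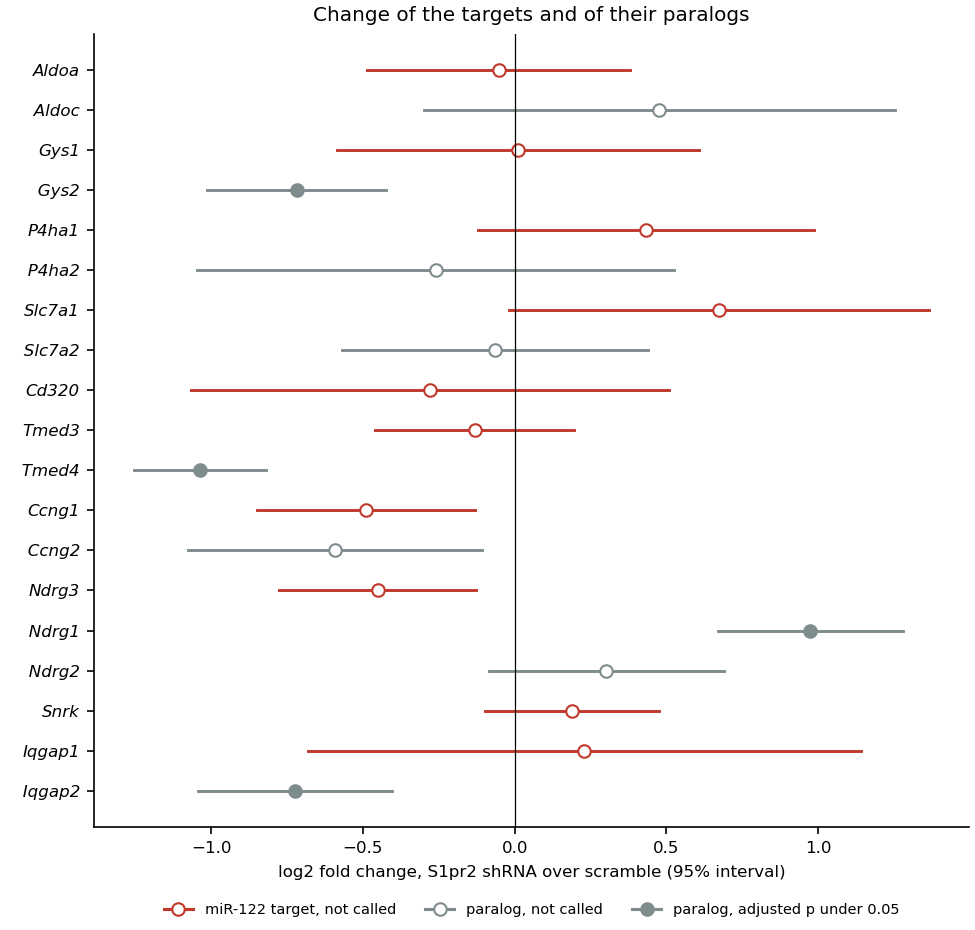
Log2 fold change (S1pr2 shRNA over scramble) with its 95% interval from the edgeR fit, for the 10 targets (red) and 9 of the 12 tested paralogs (grey). The paralogs Tmed2, Tmed9 and Tmed10 were not called and are not drawn. Filled points passed an adjusted p under 0.05. The filled points are Gys2, Tmed4 and Iqgap2 below 0 and Ndrg1 above 0, and all red points are open.

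Snrk, a kinase of the AMPK-related family, was at 55.5, 54.3 and 46.1 CPM in S1pr2 shRNA livers, against 40.5, 51.6 and 44.7 CPM in scramble livers. S1pr2 shRNA livers 1 and 2 were the highest of all 6, and liver 3 lay among the scramble livers. Its fold change was 1.14 with a 95% interval of 0.934 to 1.39 (edgeR adjusted p = 0.403).

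Iqgap1 encodes a scaffold that binds Rac1, Cdc42 and actin, and is expressed in many cell types. It was at 18.5, 6.80 and 8.78 CPM in S1pr2 shRNA livers, against 8.52, 8.96 and 11.7 CPM in scramble livers. S1pr2 shRNA liver 1 was far above the other 5, and S1pr2 shRNA liver 2 was the lowest of all. A fold change of 1.17 was fitted, with a 95% interval of 0.624 to 2.20 (edgeR adjusted p = 0.769), and without S1pr2 shRNA liver 1 the log2 fold change turned to -0.32 (edgeR adjusted p = 0.383) against 0.23 with all livers. Its exons overlap by up to 135 bases with those of Gm44649 on the other strand. Iqgap2, the paralog of hepatocytes, fell to 233, 257 and 263 CPM in S1pr2 shRNA livers, against 467, 376 and 400 CPM in scramble livers (log2 fold change -0.72, SE 0.14, edgeR adjusted p = 0.0224). The Iqgap2 call was lost without scramble liver 3 (edgeR adjusted p = 0.0629), S1pr2 shRNA liver 2 (0.0934) or S1pr2 shRNA liver 3 (0.0719).

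S1pr2 shRNA liver 1 also had the highest summed levels of macrophage and of stellate cell and fibroblast markers, with scramble liver 3 next in both. The summed level of 10 macrophage markers was 355 CPM there, 185 and 182 CPM in S1pr2 shRNA livers 2 and 3, and 129 to 232 CPM in scramble livers, with 10 of 10 positive log2 fold changes and 0 calls. For 10 stellate cell and fibroblast markers the sum was 598 CPM in S1pr2 shRNA liver 1, 324 and 348 CPM in the other two, and 212 to 546 CPM in scramble livers, with 8 of 10 positive and 0 calls. The 12 endothelial markers summed to 428 to 466 CPM in S1pr2 shRNA livers and 329 to 374 CPM in scramble livers. Of the 12, 5 rose and 0 fell (41.7% called, beside 7.66% of all genes), with 11 positive log2 fold changes. That of Lyve1 was -0.83 and was not called (edgeR adjusted p = 0.227). S1pr2 shRNA liver 1 did not stand apart from liver 2 in the endothelial sum. For 6 cholangiocyte markers liver 1 was highest, at 107 CPM. S1pr2 shRNA livers 2 and 3 were at 45.2 and 45.4 CPM, and scramble livers at 27.8 to 54.7 CPM. For 8 lymphocyte markers, of which 1 passed the filter, liver 1 was highest too, at 7.13 CPM. S1pr2 shRNA livers 2 and 3 were at 4.65 and 4.33 CPM, and scramble livers at 1.10 to 3.09 CPM. In both lists 0 genes were called. Hepatocyte markers summed to 84514 CPM in S1pr2 shRNA liver 1, 119803 and 123546 CPM in the other two, and 128789 to 160578 CPM in scramble livers, with 0 of 9 called. Most of that sum was Alb, serum albumin, at 75486 ± 16172 CPM in S1pr2 shRNA livers and 113596 ± 13620 CPM in scramble livers (n = 3 each). Of the 9 log2 fold changes 8 were below 0, from -0.61 for Apob to -0.07 for Ttr and -0.07 for Cps1, and that of Apoa1 was 1.08. The mean log2 level of the 9 markers overlapped between the groups, at -0.34, 0.07 and -0.06 in S1pr2 shRNA livers and -0.20, 0.15 and 0.05 in scramble livers. The part of these shifts in the values of P4ha1, Iqgap1 or any other target was not tested, and in bulk livers fewer cells of a type and less RNA per cell cannot be told apart.

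**Figure D4:**
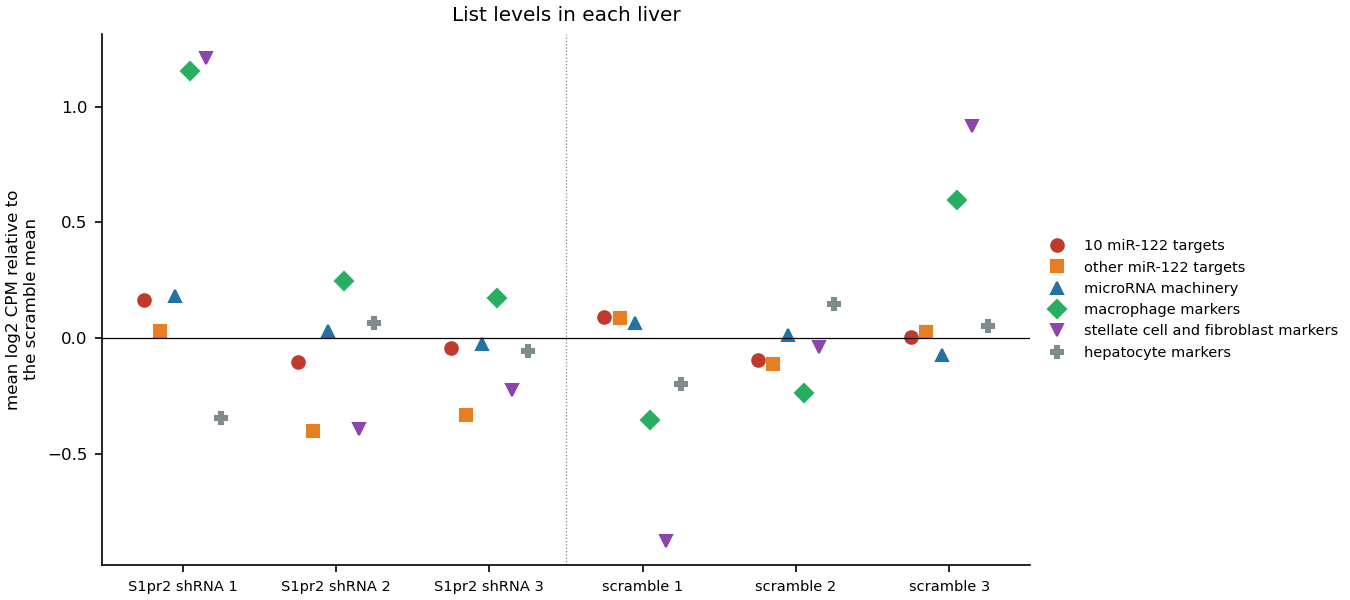
Mean log2 CPM of 6 gene lists in each liver relative to the mean of the scramble livers (y axis, log2 units), with S1pr2 shRNA livers left of the dotted line and scramble livers right of it. The 10 miR-122 targets lie between -0.10 and 0.17 in all 6 livers, while the macrophage markers reach 1.15 and the stellate cell and fibroblast markers 1.21 in S1pr2 shRNA liver 1, and 0.60 and 0.92 in scramble liver 3.

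Averaged over the 10 targets, log2 CPM relative to the scramble mean was 0.17, -0.10 and -0.05 in S1pr2 shRNA livers 1 to 3 and 0.09, -0.10 and 0.00 in scramble livers 1 to 3. The groups overlapped, and the spread within each group was wider than the distance between them. A further 23 genes published as miR-122 targets were listed from general knowledge, and 22 were tested. Of these, 5 fell, 0 rose and 17 did not pass (22.7%, beside 7.66% of all genes), with a median log2 fold change of -0.23 and 17 of 22 values below 0. The median was -0.14 without scramble liver 1 and -0.37 without S1pr2 shRNA liver 1, and on log2(FPKM + 0.1) it was -0.04, where that of all genes was 0.16.

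The 5 that fell included Ptpn1, a tyrosine phosphatase that acts on the insulin receptor, and Bckdk, the kinase that restrains branched-chain ketoacid breakdown. Ptpn1 was at 15.0, 12.7 and 12.8 CPM in S1pr2 shRNA livers, against 21.8, 20.9 and 22.1 CPM in scramble livers (log2 fold change -0.67, SE 0.11, edgeR adjusted p = 0.0123). Bckdk was at 15.0, 14.0 and 14.9 CPM in S1pr2 shRNA livers, against 22.5, 22.1 and 20.03 CPM in scramble livers (log2 fold change -0.56, SE 0.10; adjusted p = 0.0178 by edgeR), with fractional counts in 6 libraries. Every S1pr2 shRNA liver lay below every scramble liver in both genes. The homeobox factor Cux1 (-0.67), the anti-apoptotic Bcl2l2 (-0.61) and the chromatin remodelling subunit Smarcd1 (-0.70) fell as well. Leaving out a scramble liver gave 1, 1 or 3 falls for livers 1 to 3. Leaving out S1pr2 shRNA liver 2 gave 0 falls, and leaving out liver 1 or 3 gave 3. On FPKM 0 falls were called with either pseudocount, and with upper-quartile factors there were 4, without Smarcd1 (adjusted p = 0.0638). Members that did not pass included the iron regulators Hfe (-0.27) and Hfe2 (-0.01), the metalloproteases Adam10 (0.12) and Adam17 (0.50), Klf6 (0.46), Hist1h1c (-0.59) and Tgfbr1 (-0.30).

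In the microRNA machinery, 0 of 14 tested genes were called by edgeR, DESeq2 or limma-voom, and 1 had an unadjusted p under 0.05, beside 7.66% of all genes called by edgeR and 24.5% at an unadjusted p under 0.05. The median log2 fold change was 0.08. Tnrc6a, an Argonaute-binding silencing factor, was at 54.2, 49.6 and 51.1 CPM in S1pr2 shRNA livers, against 39.5, 44.2 and 37.3 CPM in scramble livers (log2 fold change 0.36, SE 0.10, edgeR adjusted p = 0.0729). Every S1pr2 shRNA liver lay above every scramble liver in 3 of the 14 (Tnrc6a, Ago1 and Ago4), as in 15.1% of all tested genes. In 1, Dicer1, every S1pr2 shRNA liver lay below, as in 16.8% of all tested genes. Tnrc6a was called with upper-quartile factors (edgeR adjusted p = 0.0416). The Argonautes Ago1 (0.22), Ago2 (-0.22), Ago3 (0.01) and Ago4 (0.45), the nuclear exporter Xpo5 (0.12) and the processing enzymes Drosha (-0.05) and Dicer1 (-0.16) did not pass. Ago1, Ago3 and Dicer1 had fractional counts in 6 libraries and Ago2 in 3.

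**Figure D5:**
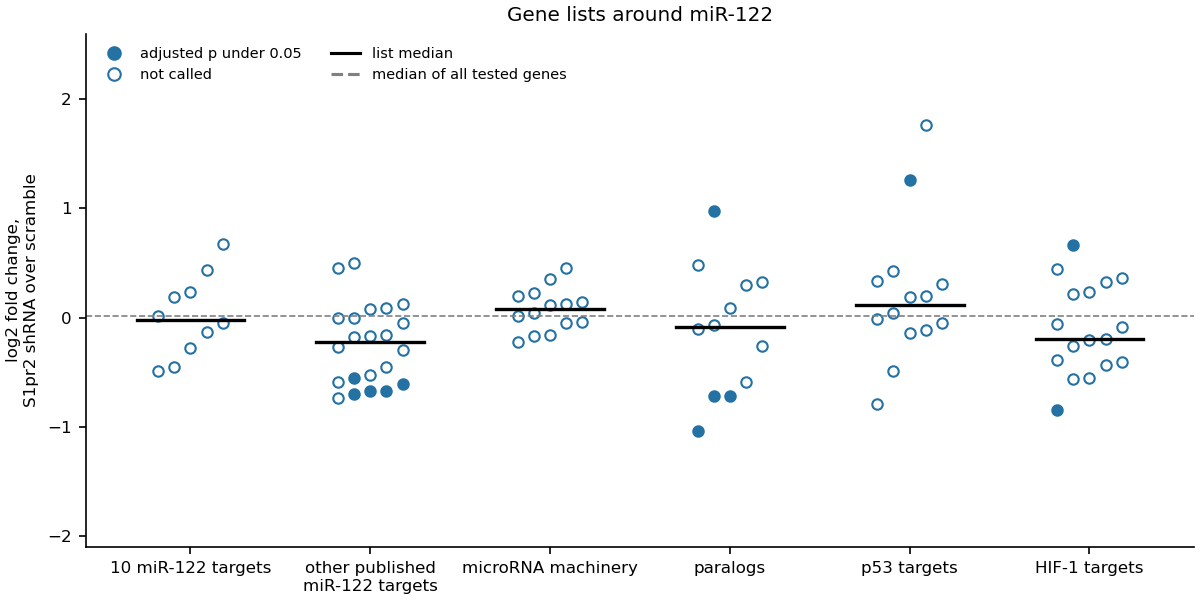
Log2 fold change (S1pr2 shRNA over scramble, y axis) of the genes tested in 6 lists, each point a gene, filled where the edgeR adjusted p was under 0.05, with list medians as black bars and the median of all tested genes dashed. The 10 targets have no filled point and a median of -0.02, and the other published targets have 5 filled points, all below 0.

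Among the 12 tested genes listed as paralogs of the targets described here, 3 fell and 1 rose (33.3%, beside 7.66% of all genes), with a median of -0.09. The count of falls was 1 without S1pr2 shRNA liver 2 or scramble liver 3, whereas Ndrg1 was called whichever single liver was left out. The median of the paralogs turned to 0.06 without scramble liver 1, 0.03 without S1pr2 shRNA liver 1 and 0.05 on FPKM. On FPKM the median of all genes was higher as well, at 0.16 on log2(FPKM + 0.1) and 0.10 on log2(FPKM + 1), against 0.01 with TMM factors. Another list held 15 binding partners, family members and pathway neighbours of the targets. It included the transcobalamin gene Tcn2 (-0.19) and P4hb (-0.12), the second subunit of prolyl 4-hydroxylase. Of the 15, 1 fell and 0 rose (6.67%, beside 7.66% of all genes). The faller was Gapdh, and Pygl (-0.42), Gak (-0.16) and Stk11 (0.24) did not pass. Tmed1 (-0.10), Tmed5 (0.16) and Tmed7 (0.11), of the same p24 family as Tmed3, were counted here and not among the paralogs. They were not called either.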

How the data were processed

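Liver RNA was sequenced on a DNB platform as 6 libraries, with 1 table per library. Tools named in the submitters' processing notes are RSEM 1.2.12, Bowtie2, HISAT2 and DESeq2, and the build is mm9. Neither their roles nor the strand handling is stated there. The authors deposited expected counts per gene, not scaled to depth, and FPKM, scaled by the authors to gene length and library size. Genes not listed in a library were set to 0. Expected counts were rounded, filtered with filterByExpr (minimum count 10), scaled by TMM and tested two-sided with the edgeR 4.0.16 quasi-likelihood test (robust, group only, R 4.3.3), with Benjamini-Hochberg adjustment over all 12230 genes and a threshold of 0.05. The pipeline was tested on simulated data. The members and all gene lists were chosen with earlier results of these data known, and no list was tested. Named genes were the 10 targets, S1pr2, paralogs fixed by name, up to 4 genes with the smallest p per list and any called list gene; other list members named beside them were chosen after their values were seen. Alternatives were other factors (upper-quartile, DESeq2), other filters (none, mean CPM of 1 or more), other tests (limma-voom with limma 3.58.1, the DESeq2 1.42.0 Wald test, edgeR without robust dispersions), a replicate block, limma on log2(FPKM + 0.1) or log2(FPKM + 1) for a mean FPKM of at least 0.1, and each liver left out. Promoter windows came from RefSeq (GRCm38.p6) and matched 10 of 10 targets by symbol; other coordinates are not printed, since the files use another build. The planned search for miR-122 sites was not made. One gene of the fixed lists is not reported here and was left out of the list counts and figures.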

Additional observations from a re-analysis of the deposited data

How the results depend on the processing

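The count of targets called higher was 0 under all 16 alternatives and with any liver left out. The count called lower was 0 under 15 of them and 1 with the replicate number as a block, Ccng1 (log2 fold change -0.48, adjusted p = 0.0452). Deviations of same-numbered livers correlated at -0.06, 0.22 and -0.12, so the numbers were not taken to pair samples, and not every liver correlated best with its own number; the block called 808 genes against 937, and ended the calls of Iqgap2 (-0.72, adjusted p = 0.0517), Smarcd1 (0.0644) and Gapdh (0.0768). The median of the targets was 0.13 on log2(FPKM + 0.1), where the median of all genes was 0.16 against 0.01 with TMM factors, and ran from -0.13 to 0.11 with a liver left out. S1pr2 lost its call with the replicate block (-1.11, adjusted p = 0.0684), on log2(FPKM + 0.1) (-0.90) and log2(FPKM + 1) (-0.54), and ran from -1.29 to -0.95 with a liver left out. Signs turned, with no call, for Aldoa with upper-quartile factors (0.015) and on FPKM (0.094 with a pseudocount of 0.1 and 0.093 with 1), Tmed3 on FPKM (0.0065 and 0.0068) and Slc7a2 with upper-quartile factors (0.0042) and on FPKM (0.061 and 0.059). With a liver left out Aldoa ran from -0.22 to 0.11, Gys1 from -0.20 to 0.13, Iqgap1 from -0.32 to 0.49, P4ha2 from -0.67 to 0.043 and Slc7a2 from -0.22 to 0.13. The median of all genes was 0.08 with upper-quartile factors, 0.16 on log2(FPKM + 0.1) and 0.10 on log2(FPKM + 1), against 0.01 with TMM factors. The cause of the turns was not tested. With DESeq2 1466 genes were called and without S1pr2 shRNA liver 2 only 231. Slc7a1, Cd320 and Gys1 rested on fewer than 60 counts per library, which limits their precision.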
